A study of Solanum lycopersicum with 24 samples.

Results

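The heat effect at the tetrad stage was described across all genes of tomato (Solanum lycopersicum) anthers, from 8 of the 24 libraries of the series. They were chosen by their labels, 4 libraries of tetrad-stage anthers under long-term mild heat (LTMH) against 4 of the same stage at control temperature (CT). All plants were of the dwarf cultivar Micro-Tom. CT cabinets were held at 25 °C in the light and 19 °C in the dark at a relative humidity of 50%. LTMH plants were transferred when they began to flower to 34 °C in the light and 28 °C in the dark at a relative humidity of 68%, and tetrad anthers were collected 4 days later, about 5 hours after the start of a 12-hour day. Temperature and humidity changed together, so their effects cannot be told apart. Each library came from 6 pooled anthers. Whether the pools of a group were drawn from different plants is not labelled, and the p-values then cover only the variation among these libraries.

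At the tetrad stage meiosis has just been completed, and the young microspores of each meiocyte are still held together by a callose wall. The tapetum, the innermost layer of the anther wall, surrounds them, supplies nutrients and the enzymes that dissolve callose, and later delivers material for the pollen coat. Meiosis and the tapetum are widely described as the most heat-sensitive phases of pollen formation, and warm spells at these stages are known to reduce viable pollen in tomato. An anther library mixes tapetum, microspores and outer wall. A lower level can therefore stand for fewer cells of a type or for less RNA per cell, which cannot be told apart here. The identifiers in the deposited tables are not paired with names there, and 0 of 35768 matched the reference table at hand. Genes are accordingly given by identifier, with no name or role, and the tissue could not be checked against marker genes.

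Library totals ran from 15.7 to 17.6 M reads in CT and from 18.5 to 20.7 M in LTMH, without overlap (16.8 ± 0.774 against 19.4 ± 1.08 M, SD, n = 4 per group; exact two-sided permutation p = 0.0286, below which 4 against 4 libraries cannot go, and 0.0857 adjusted over 6 such measures). Genes with at least 1 read numbered 24599 ± 218 in CT and 24933 ± 412 in LTMH (exact permutation p = 0.20). The scaling factors of the trimmed mean of M-values (TMM) ran from 0.884 to 0.970 in CT and from 0.993 to 1.08 in LTMH, again without overlap (exact permutation p = 0.0286, adjusted p = 0.0857). The direction of small changes therefore depends on the scaling. With totals in place of TMM the median log2 change of all tested genes was 0.15, against -0.01 with TMM. CT replicates 1 and 2 resembled each other far more than any other pair, with a chi-square per degree of freedom of 4.43 against 35.7 to 52.5 for the other CT pairs and 43.7 to 109 for LTMH pairs.

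Mild heat for 4 days changed many genes by small amounts, with more of them lower than higher under TMM scaling and the reverse under library totals. Of 21429 tested genes, 1763 were higher (8.23%) and 2774 lower (12.9%) in LTMH anthers, 21.2% in all (edgeR quasi-likelihood test, Benjamini-Hochberg adjusted p below 0.05, no minimum fold). Of the higher genes, 1012 changed by under 1.5-fold, 383 by 1.5 to 2-fold, 259 by 2 to 4-fold, 68 by 4 to 8-fold and 41 by more. Of the lower genes the same bins held 1343, 694, 568, 136 and 33. The middle 50% of higher genes had log2 changes of 0.36 to 0.89, and that of lower genes -1.04 to -0.38. The middle 50% of all tested genes lay between -0.28 and 0.22. The LTMH and CT libraries did not overlap for 3480 of the 4537 called genes, and for 23.2% of tested genes.

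The share of higher genes among the calls moved with the scaling, from 38.9% with TMM to 55.6% with upper-quartile scaling and 74.3% with library totals, where 4384 genes were higher and 1520 lower. A test against a 1.5-fold change called 81 higher and 158 lower genes. Without LTMH replicate 4 there were 1239 higher and 1740 lower genes. With CT replicates 1 and 2 summed into 1 library, 3452 genes were called, of which 3407 were among the 4537.

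**Figure D1:**
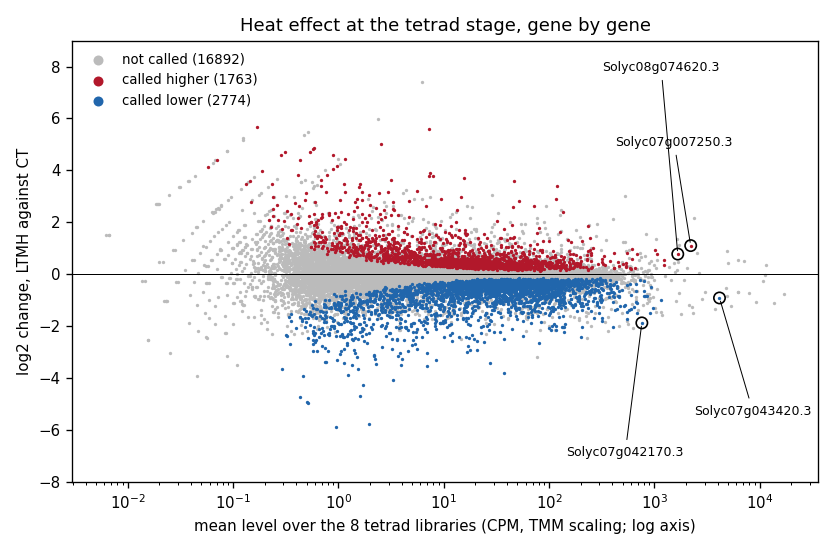
Each point is 1 of the 21429 tested genes, with its mean level over the 8 tetrad libraries (CPM, log axis) against its log2 change in LTMH relative to CT; colours mark called genes and circles the 4 genes described by identifier. Calls run along the whole range of levels, and the steepest ones, up to about 6 on the log2 axis in either direction, lie at low levels.

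The steepest changes were in weakly expressed genes. The 109 genes at least 4-fold higher had a median level of 0.288 CPM in CT and 2.09 CPM in LTMH, and 88 of them lay under 1 CPM in CT. The 169 genes at least 4-fold lower had medians of 3.39 CPM in CT and 0.612 CPM in LTMH, and 99 of them lay under 1 CPM in LTMH. Complete on or off patterns were few. A total of 35 listed genes had no read in the 4 CT libraries and at least 1 read in every LTMH library, with a median of 9 summed reads, and 11 genes showed the reverse, with a median of 7. After thinning all libraries to the smallest total these numbers were 28 and 16. Only 5 of the 35 and 0 of the 11 passed the filter on low counts, and 2 of those 5 were called.

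The called genes took about as large a part of the read pool as of the gene list. They were 21.2% of tested genes, and the tested genes not called took 75.8% to 76.5% of reads in CT and 77.4% to 78.5% in LTMH. Genes called higher took 5.16%, 5.25%, 4.98% and 5.89% of reads in the CT libraries and 8.26%, 7.97%, 8.84% and 9.54% in the LTMH libraries. Genes called lower took 18.9%, 18.9%, 19.1% and 17.5% in CT and 14.3%, 14.0%, 12.6% and 12.1% in LTMH. Both sets were chosen on these libraries, so the separation is a description with no test. Within each group replicate 4 had the largest share in the higher set and the smallest in the lower set. Measured per length, as a share of summed FPKM, the higher set went from 4.18 ± 0.414% to 7.17 ± 0.807% and the lower set from 15.9 ± 0.394% to 11.4 ± 0.743% (SD, n = 4 each). The differences were spread over many genes. It took 84 genes to account for 50% of the CPM gained by the higher set and 186 for 50% of the CPM lost by the lower set, and the largest single contribution was 6.13% and 3.41%.

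Single genes are described for the largest gain and loss of CPM among called genes whose groups did not overlap, 2 in each direction. This choice fixed their calls and the separation of their groups at the tetrad stage, so both are a description. By the convention for tomato identifiers, in which the first digits give the chromosome, Solyc08g074620.3 lies on chromosome 8 and the other 3 on chromosome 7; the files give no positions.

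Solyc07g007250.3 had 1187, 1272, 1261 and 1904 CPM in CT replicates 1 to 4 and 2943, 3327, 2024 and 3799 CPM in LTMH. All LTMH libraries lay above all CT libraries, with CT replicate 4 only just below LTMH replicate 3. The group means were 1406 ± 334 CPM in CT and 3023 ± 753 CPM in LTMH (SD, n = 4 each), a rise by 1.10 ± 0.33 on the log2 scale (SE; edgeR adjusted p = 0.0212). The gene dropped out of the calls when CT replicate 1, 2 or 3 or LTMH replicate 4 was removed (edgeR adjusted p of 0.0611, 0.0571, 0.0548 and 0.0660, log2 changes of 1.03, 1.06, 1.06 and 0.98) and with CT replicates 1 and 2 summed (1.04, adjusted p = 0.0586). Later anthers showed the rise too, by 1.26 ± 0.33 (SE, edgeR adjusted p = 0.0203) in free and 1.59 ± 0.33 (SE, edgeR adjusted p = 0.00228) in polarized microspore anthers. CT and LTMH libraries did not overlap there either.

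Solyc08g074620.3 was the steadier of the raised genes. Its level was 1134, 1272, 1389 and 1125 CPM in the CT libraries and 1998, 2236, 1983 and 2220 CPM in the LTMH libraries. The gap between the groups was larger than the range within either. From 1230 ± 126 to 2109 ± 137 CPM (SD, n = 4 each) it rose by a log2 change of 0.78 ± 0.14 (SE, edgeR adjusted p = 0.000777). At the later stages it stood at 1274 ± 303 and 1020 ± 203 CPM in CT and at 2301 ± 130 and 2181 ± 204 CPM in LTMH (log2 changes of 0.85 ± 0.14 and 1.10 ± 0.14 SE, edgeR adjusted p = 0.000873 and 2.93e-05). LTMH libraries lay between 1880 and 2430 CPM at all 3 stages.

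Solyc07g043420.3 was among the most abundant transcripts of the anther. It had 6296, 5519, 5083 and 4819 CPM in CT and 3848, 3174, 2225 and 2289 CPM in LTMH. No LTMH library reached the lowest CT library. Means of 5429 ± 646 CPM in CT and 2884 ± 775 CPM in LTMH (SD, n = 4 each) gave a log2 change of -0.91 ± 0.25 (SE; edgeR adjusted p = 0.0123). In free microspore anthers the heat change of -0.20 ± 0.24 (SE) was not called (edgeR adjusted p = 0.682), and in polarized microspore anthers it was -0.83 ± 0.25 (SE, edgeR adjusted p = 0.0221).

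Solyc07g042170.3 showed the steepest of the 4 changes. CT libraries held 1227, 1155, 1467 and 937 CPM, and LTMH libraries 508, 345, 293 and 160 CPM. The lowest CT library was well above the highest LTMH library. With means of 1197 ± 219 and 327 ± 144 CPM (SD, n = 4 each) the gene fell by 1.87 ± 0.39 on the log2 scale (SE; edgeR adjusted p = 0.00226). At the later stages the gene was at 257 ± 179 and 232 ± 48.1 CPM in CT and 172 ± 53.8 and 223 ± 43.5 CPM in LTMH, with no heat call at either (log2 changes of -0.58 ± 0.38 and -0.06 ± 0.37 SE; edgeR adjusted p = 0.374 and 0.942). The difference between its tetrad effect and the mean of the later effects, -1.55 ± 0.46 SE, was not called (edgeR adjusted p = 0.0753).

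**Figure D2:**
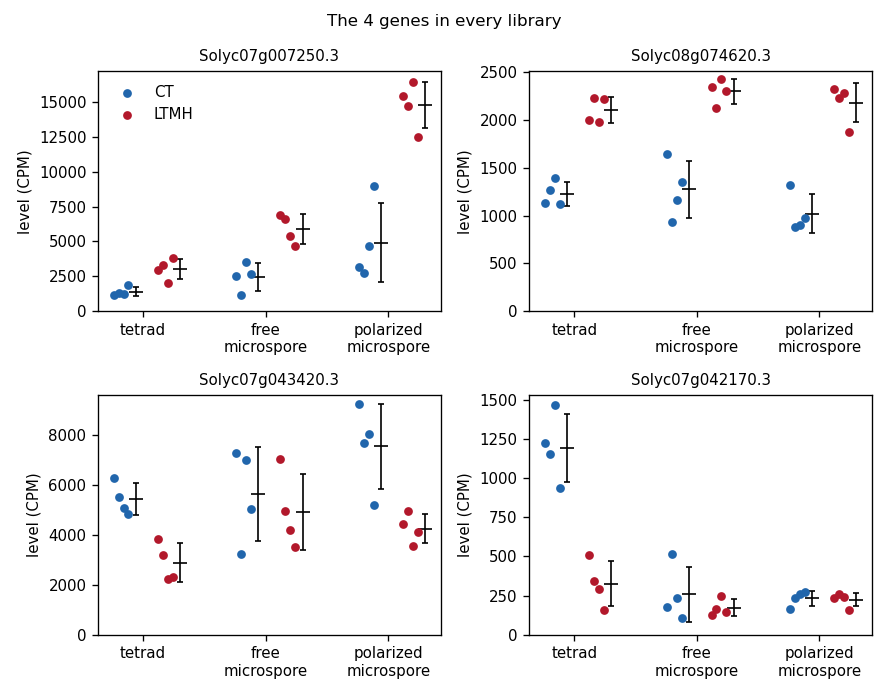
Level (CPM, linear axes starting at 0) of the 4 genes in each of the 24 libraries by stage and temperature; points are libraries, bars beside them the mean ± SD of 4. At the tetrad stage the LTMH libraries lie above the CT libraries for Solyc07g007250.3 and Solyc08g074620.3 and below them for the other 2, and Solyc07g042170.3 has its highest levels, 937 to 1467 CPM, in tetrad CT.

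Most of the 20 transcripts with the largest share of reads had negative heat changes, few of them called. Of the 20 genes with the largest mean share of reads over the 8 libraries, 15 had a negative log2 change and 1 was called, against 21.2% of all tested genes. The LTMH and CT libraries did not overlap for 4 of the 20, against 23.2% of all tested genes. Their log2 changes had a median of -0.68 and their standard errors a median of 0.67. For all tested genes the median log2 change was -0.01 and the median standard error 0.16. Among classes by FPKM such a lean was absent from the top class and present in the next. Of the 52 genes with a mean of 1000 FPKM or more, 48.1% had a log2 change above the median of all tested genes. Of the 1073 genes with 100 to 1000 FPKM, 30.3% did. Together these 20 genes took 15.3%, 14.7%, 17.2% and 13.6% of reads in CT and 14.1%, 14.3%, 12.4% and 9.80% in LTMH. The groups overlapped, with CT replicate 4 below LTMH replicates 1 and 2, and LTMH replicate 4 was the lowest library.

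With no minimum fold, calls of lower genes were most frequent between 10 and 1000 FPKM, where standard errors were also smallest. Calls of higher genes were most frequent at 1 to 10 FPKM with TMM, an order that did not hold under library totals. Among 8733 genes with a mean of 10 to 100 FPKM, 18.1% were lower and 7.83% higher, and among 1073 genes with 100 to 1000 FPKM, 21.6% and 5.22%. Among 8826 genes with 1 to 10 FPKM, 8.88% were lower and 9.61% higher, and among 2745 genes under 1 FPKM, 6.23% and 6.30%. The shares for all tested genes are 12.9% and 8.23%. Median standard errors were 0.454 under 1 FPKM, 0.186 at 1 to 10 and 0.112 both at 10 to 100 and at 100 to 1000. How far this precision set the shares called was not tested. In the test against a 1.5-fold change the order of the lower calls was reversed. The shares were 0.63% at 10 to 100 FPKM, 0.47% at 100 to 1000 and 0.87% at 1 to 10, against 0.74% of all genes. With library totals the shares called lower were 9.15% at 10 to 100 FPKM, 10.9% at 100 to 1000 and 5.37% at 1 to 10. All genes then had 7.09%, and the order was that seen with TMM and no minimum fold. The shares called higher were then 23.4%, 14.2% and 21.4%, against 20.5% of all genes, so that the class of 10 to 100 FPKM passed that of 1 to 10, as it did in limma on log2(FPKM + 1) with 23.7% against 21.2%. Without LTMH replicate 4 the shares called lower were 11.6%, 11.7% and 5.68%, against 8.12% of all genes. Medians relative to all genes with TMM were -0.03, -0.14 and 0.04 on the log2 scale in the same order. Above 1000 FPKM, 3 of 52 genes were lower and 2 higher, with a median of -0.03 relative to all genes and a median standard error of 0.581. Called higher genes had a median level of 8.03 FPKM, called lower genes 16.9 FPKM and all tested genes 8.66 FPKM.

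Gene length went with direction as well in calls with no minimum fold. Among the longest 25% of tested genes (2514 bases or more, the length being the one behind the deposited FPKM) 11.3% were higher and 11.2% lower, and among the shortest 25% (under 1006 bases) 5.51% and 12.2%. The median log2 change relative to all genes was 0.05 in the longest and -0.05 in the shortest class. With library totals 28.0% of the longest and 13.3% of the shortest genes were higher, against 20.5% of all genes. Longer genes collect more reads and had smaller standard errors, with a median of 0.131 against 0.243 in the shortest class. The part of this precision in the calls was not tested. In the test against a 1.5-fold change 0.26% of the longest and 0.41% of the shortest genes were higher, against 0.38% of all genes. Lower were 0.58% and 0.97%, against 0.74%. The median length was 1966 bases for genes called higher, 1570 for genes called lower and 1640 for all tested genes.

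The called genes were spread over the genome. The share called ranged from 19.0% to 23.6% over the 12 numbered chromosomes and the group numbered 0 that the identifiers give. Neighbours in identifier order were called alike somewhat more often than all genes. Of the tested neighbours of genes called higher, 11.1% were also higher, against 8.19% of all genes on the 12 chromosomes, and of the neighbours of genes called lower 17.2% were also lower, against 13.0%. There were 20 runs of 3 or more consecutive higher genes and 62 runs of lower genes, the longest with 5 and 9 members. Untested genes were skipped, so members of a run need not be adjacent. How many runs the shares called alone would give was not tested. Adjacent genes can be near-identical copies or overlap, and their reads may then not be told apart.

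Genes that fall at least 2-fold later in normal development had lower tetrad levels in heat at the median and few higher calls, and those that rise had few lower calls. They were grouped by the step from free to polarized microspores in CT, which uses no tetrad library and in which 19.6% of tested genes were called as rising and 21.4% as falling. Among 2320 genes that fall at least 2-fold in that step, 373 were lower (16.1%, background 12.9%) and 58 higher (2.50%, background 8.23%) in tetrad LTMH, with a median log2 change of -0.37 relative to all genes. How far the share of lower calls lay above the background depended on the setting. Without LTMH replicate 4 it was 8.71% (202 genes) against 8.12% of all genes, with a median of -0.29 relative to all genes. Without LTMH replicate 2 it was 19.96% against 12.7%. With the 8 tetrad libraries fitted alone it was 19.4% of 2195 such genes, against 8.96%. The 2273 genes that fall by under 2-fold had more lower calls, 21.7%, and 6.60% higher, with a median of -0.07. Their median standard error was 0.135, against 0.443 for genes that fall and 0.390 for genes that rise at least 2-fold. The part of this precision in the shares called was not tested. Among 1098 genes that rise at least 2-fold, 36 were lower (3.28%) and 88 higher (8.01%, near the background). Their median was 0.17 relative to all genes, or 0.01 in limma on log2(FPKM + 1). Only 767 of the 1098 passed the filter on low counts in the 8 tetrad libraries alone. In that fit 13.2% of the 767 were higher, against 8.04% of all genes, and 5.08% lower, against 8.96%. The share of higher calls thus differed between these fits, which differ in scaling and dispersions as well as in the genes kept. With a filter at a mean of 1 CPM over the 24 libraries, 10.1% of 887 rising genes were higher, against 10.7% of all genes. The cause of the difference was not tested. The 12630 genes not called in that step had 12.2% lower and 8.96% higher. With library totals, 13.0% of the falling genes were lower against 7.09% of all genes.

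**Figure D3:**
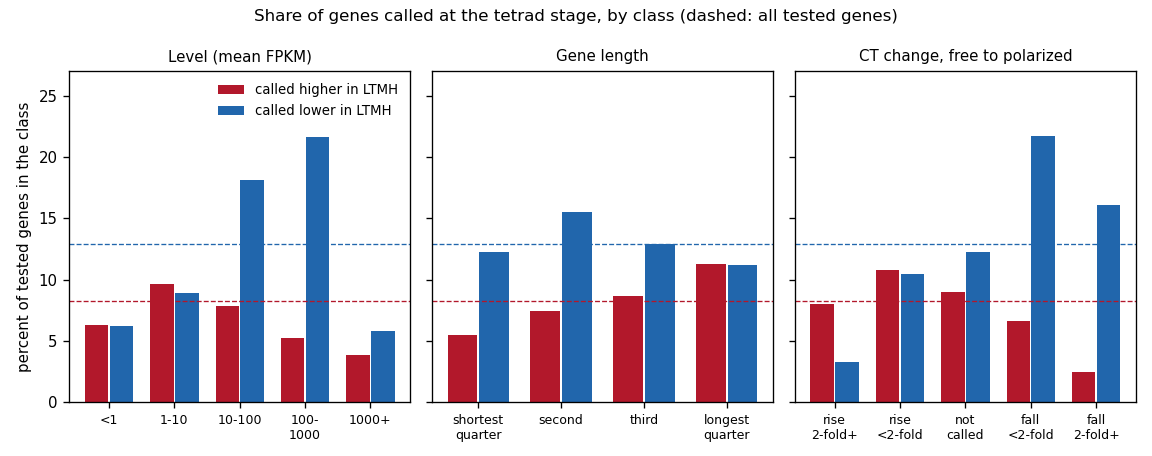
Percent of tested genes called higher or lower in tetrad LTMH (bars from 0), by mean level in FPKM, by 4 equal classes of gene length, and by the change from free to polarized microspores in CT; dashed lines are the shares of all tested genes, 8.23% higher and 12.9% lower. Among the level classes the share called lower is largest at 100 to 1000 FPKM, 21.6%, and over all panels the share called higher is largest among long genes, 11.3%.

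The later-falling genes also varied within each temperature. Their median log2 level, relative to the CT mean of each gene, was 0.08, 0.10, -0.08 and -0.17 in CT replicates 1 to 4 and -0.41, -0.24, -0.35 and -0.71 in LTMH. The groups did not overlap, and replicate 4 had the lowest median in both. By the class mean, CT replicate 3 was the lowest CT library (0.11, against 0.20 in CT replicate 4), and LTMH replicate 4 was again the lowest of LTMH. The median SD between replicates was 0.421 in CT and 0.544 in LTMH for these genes, against 0.198 and 0.208 for all tested genes. When the 8 libraries were fitted alone with the mean level of this class in each library as a covariate, 19 genes were called, 13 higher and 6 lower. The covariate itself separated the temperatures, so class level and temperature cannot be told apart in that fit, and none of the 4 genes described above was called in it (log2 changes of 1.05, 0.78, -0.40 and -1.13, edgeR adjusted p of 0.366, 0.198, 0.689 and 0.477 in the order described). A principal component over the 500 most variable genes held 52.5% of the variance and separated the groups, with scores from -33.2 to -5.79 in CT and from 2.60 to 46.7 in LTMH. CT replicate 4 and LTMH replicate 2 faced each other across the gap.

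Genes that responded to heat at both later stages were called at the tetrad stage, in the same direction, more often than all genes. The heat effects of the later stages rest on libraries of their own, though on 1 fit with shared dispersions. Of 547 genes called higher in LTMH at both the free and the polarized microspore stage, 375 were higher at the tetrad stage (68.6%, background 8.23%) and 0 lower. Of 677 genes called lower at both, 411 were lower at the tetrad stage (60.7%, background 12.9%) and 0 higher. That share depended on the setting. It was 45.0% with the 8 tetrad libraries alone, 49.0% without LTMH replicate 4 and 32.3% with library totals. Backgrounds were then 8.96%, 8.12% and 7.09%. The class higher at both had 65.6%, 57.0% and 85.2%, against 8.04%, 5.78% and 20.5%. Median standard errors were 0.139 in the higher and 0.103 in the lower class, against 0.164 for all tested genes. How far this precision set these shares was not tested. Uncalled members mostly leaned the same way. In all, 97.4% of the first class had a log2 change above the median of all genes and 3.10% of the other class did.

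These shifts were alike in every library. The class higher at both later stages had a median log2 level, relative to the tetrad CT mean of each gene, between -0.02 and 0.03 in the CT libraries and of 0.45, 0.54, 0.46 and 0.56 in LTMH. For the class lower at both later stages, CT libraries lay between -0.03 and 0.03 and LTMH libraries at -0.34, -0.33, -0.36 and -0.35. The LTMH libraries lay close together in both classes, LTMH replicate 4 included, which was the outermost library for later-falling genes.

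**Figure D4:**
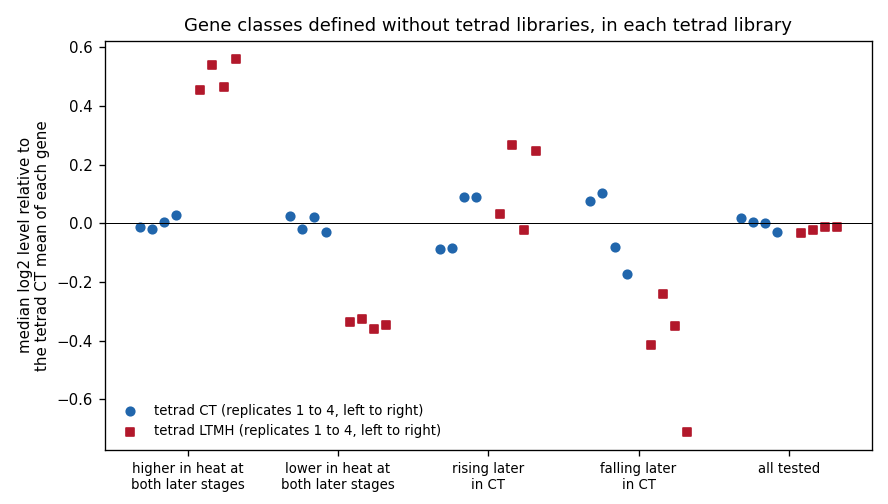
Median log2 level of gene classes in each of the 8 tetrad libraries, relative to the tetrad CT mean of each gene; the first 4 classes were defined on later-stage libraries only. LTMH libraries lie together at about 0.5 and -0.34 for the genes that respond to heat at both later stages, and spread from -0.24 to -0.71 for genes falling later in CT.

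Read from the tetrad stage, most called genes were not called later. Of the 1763 higher genes, 549 were also higher at the free microspore stage (31.1%, background 4.21%), 593 at the polarized microspore stage (33.6%, background 8.32%) and 375 at both, while 0 and 15 were lower there. Their median log2 change was 0.51 in tetrad anthers and 0.29 and 0.25 at the 2 later stages. Of the 2774 lower genes, 579 were also lower at the free microspore stage (20.9%, background 4.61%), 763 at the polarized microspore stage (27.5%, background 10.7%) and 411 at both, while 0 and 47 were higher. Their medians were -0.61, -0.26 and -0.16. Among genes at least 4-fold higher, 51 of 109 were higher at the polarized microspore stage, with a median of 2.02 there against 2.78 at the tetrad stage. Among the 169 genes at least 4-fold lower, with a tetrad median of -2.40, 32 were also lower at the free microspore stage (18.9%) and 0 higher, with a median of -1.27 there. At the polarized microspore stage 15 of them were lower (8.88%) and 6 higher, with a median of 0.00. That median includes 9 genes without a read in the 8 libraries of that stage, and is -0.01 without them. These genes were chosen on their tetrad values, so the tetrad medians are a description.

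A missing call later did not by itself show a tetrad-specific effect. Of the 982 higher and 1797 lower genes called at neither later stage, 58 and 276 differed in the direct test of the tetrad heat effect against the mean of the later effects. That test called 523 genes (2.44% of those tested, edgeR adjusted p below 0.05), of which 401 (1.87%) had a more negative and 122 (0.569%) a more positive effect at the tetrad stage. The 401 had median log2 heat changes of -0.76 in tetrad anthers, -0.06 with free and 0.13 with polarized microspores. The 122 had medians of 0.40, -0.11 and -0.34. The libraries behind these medians are the ones that chose the genes, so the values are a description.

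The number of such genes was not stable. It became 195, 150 and 329 without tetrad CT replicates 1, 2 and 3, 814, 283 and 166 without tetrad LTMH replicates 2, 3 and 4, and 185 with CT replicates 1 and 2 summed. It became 1186 and 336 without free microspore CT replicates 2 and 4, and 323 and 318 without LTMH replicates 2 and 3 of that stage. Among polarized microspore libraries, leaving out CT replicate 1 or 2 gave 313 or 342 and leaving out LTMH replicate 1 gave 344. DESeq2 called 1120. In limma on log2(FPKM + 1), 61.6% of 1279 called genes were more positive at the tetrad stage, against 23.3% as reported.

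**Figure D5:**
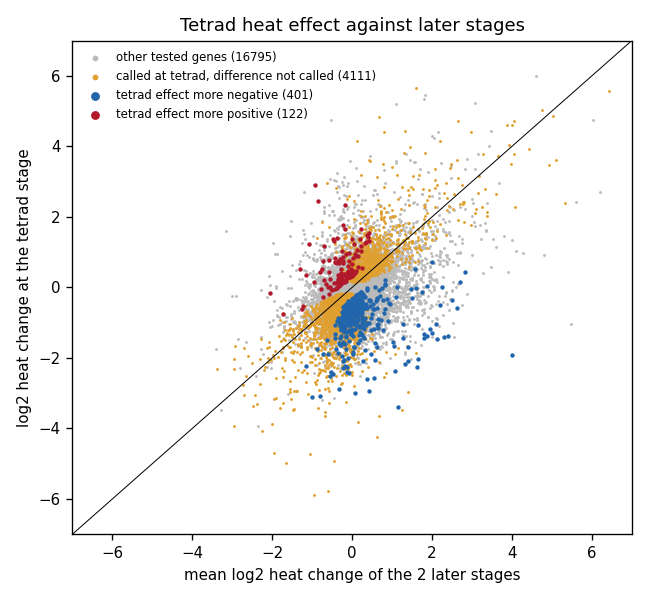
Log2 heat change at the tetrad stage against the mean of the log2 heat changes at the 2 later stages for the tested genes, with the line of equality (1 gene lies outside the axes). The 401 and 122 genes called for a difference lie below and above the line. Of the 4111 genes called at the tetrad stage with no called difference, 3715 have the same sign on both axes. Leaving out genes with a called difference favours the same sign, so this number is a description. The median size of the 4111 changes is 0.54 at the tetrad stage, where they were chosen, and 0.27 later.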

How the data were processed

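Poly-A RNA was sequenced from 24 anther libraries, in 6 groups of 4 read from the labels. Raw counts of reads per gene were deposited, with a second deposited file of FPKM. TopHat2 2.0.12 and HTSeq 0.6.1 are named in the submitters' processing notes. Neither the build nor the annotation is given in the sources used here. The kit is not described as keeping strand, so overlapping genes on opposite strands, like near-identical copies, are uncertain. The FPKM values returned a whole-base length (tolerance 0.01) for all 21429 tested genes.

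The quasi-likelihood fit of edgeR 4.0.16 (R 4.3.3) covered all 24 libraries with TMM scaling, filterByExpr (minimum count 10 of 35768 genes listed), robust dispersions and 18 residual degrees of freedom. P-values were adjusted over all tested genes and called below 0.05. The F statistic gave the standard errors. CPM values carry the TMM scaling; class shifts use log2 CPM with a prior count of 2. The members and groupings were chosen with earlier results of these data known. Genes printed are the 2 called genes in each direction with the largest difference of mean CPM, a mean of at least 1 CPM and no overlap of the groups. The lists resting on names and the marker check could not be used, since 0 identifiers matched the reference table (assembly SLM_r2.1, 41476 genes). Exact permutation tests were two-sided over 70 arrangements (scipy 1.17.1). On simulated counts over 21219 genes the tetrad comparison recovered 33.3% of 1.5-fold, 58.9% of 2-fold and 89.4% of 4-fold changes, with 5 false calls of 127. Only 60, 73 and 66 genes were changed by these folds there, in random directions, far fewer than the 4537 calls of the real comparison. Adjusted p-values and TMM depend on that, so these rates need not hold for the real comparison. Replicate numbers are shared between groups, but nothing in the labels ties them. Alternatives were other scalings, filters and thresholds, DESeq2 1.42.0, limma 3.58.1 on log2(FPKM + 1) and log2(FPKM + 0.1), the replicate block, the 8 libraries alone, thinning, summing CT replicates 1 and 2, and leaving out each library.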

Additional observations from a re-analysis of the deposited data

Results flagged for a closer look

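Of 44 groups of 4 tetrad libraries examined, 6 had 1 library far from the other 3, where chance gives about 1 in 20. The number of genes with a read was high in LTMH replicate 2, where the gap to the next library made up 0.966 of the range of the group, and 0.83 after thinning to equal depth. CT replicate 4 stood apart in the remaining ones. It had the lowest share of reads in genes called lower (17.5%, gap 0.879 of the range), the highest share in tested genes not called (76.5%, gap 0.866), the lowest median level of the genes called lower (gap 0.851), and the highest level of Solyc07g007250.3 (1904 CPM, gap 0.882). In each of these the library lay on the side of the LTMH libraries. Several of these measures share genes and are not independent.

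The heat effect at the tetrad stage differed from the mean of the later stages for 523 genes by a test of the difference itself, a number that varied widely between settings.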

How the results depend on the processing

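Replicates 4 against 4 limit what can be called at small folds. The 4537 calls became 2142 (746 higher, 1396 lower) at an adjusted p below 0.01 and 239 (81 and 158) in a test against a 1.5-fold change, settings that are stricter by construction, and 19 (13 and 6) with the class level of later-falling genes as a covariate, chosen after seeing the data. Higher calls were 2645 with upper-quartile scaling, 4364 in limma on log2(FPKM + 1), 4397 on log2(FPKM + 0.1) and 4384 with library totals (added later). Lower calls were 1754, 1545 and 1520 in the last 3, and 1805 in the 8 tetrad libraries alone. The cause of these differences beyond the scaling was not tested. Leaving out 1 tetrad library gave 2979 to 4487 calls (1239 to 1751 higher, 1740 to 2742 lower), the lowest without LTMH replicate 4. The 523 genes with a tetrad difference became 18 at an adjusted p below 0.01, 1 against 1.5-fold, 1120 in DESeq2, 1279 and 1014 in limma on log2(FPKM + 1) and log2(FPKM + 0.1), 949 with library totals and 185 with tetrad CT replicates 1 and 2 summed, and ranged from 150 to 1186 when 1 library of any stage was left out. The fold cut and the stricter threshold lower counts by construction; otherwise the cause was not tested.

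Whether replicate numbers pair the tetrad libraries is not labelled, and the correlations below were too mixed to settle it. Same-numbered CT and LTMH libraries had correlations of their deviations from the group means of 0.14, -0.09, -0.38 and 0.35. Those of libraries with different numbers ran from -0.20 to 0.32. With the replicate block 4703 genes were called at the tetrad stage, 4324 of them among the 4537, and 607 for the tetrad difference, and all 4 named genes kept their call. No named gene changed sign under any setting, and the medians of the 4 gene classes kept their sign.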
